A study of Mus musculus with 6 samples.

Results

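The genes described here are 10 markers of preadipocytes and mesenchymal progenitors, taken by symbol from the 26214 genes listed in each count file: Pdgfra, Pdgfrb, Zfp521, Zfp423, Dlk1, Cd34, Ly6a, Thy1, Vim and S100a4. All 10 were listed, and all 10 passed the filter on low counts, the lowest DMSO count of any being 44, for Cd34. The cells were immortalized mouse brown preadipocytes, induced with insulin, triiodothyronine, IBMX, dexamethasone and indomethacin and kept in insulin and triiodothyronine up to day 7. They then received 100 nM rotenone, which blocks complex I of the mitochondrial respiratory chain, or the solvent DMSO for 16 h; no genotype, strain or clone was given, and no undifferentiated culture was analysed here. The labels name 3 replicates per group, called independent, but the 3 rotenone files held identical counts for every gene and were used as 1 library, so 3 DMSO libraries were compared with 1 rotenone library.

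Preadipocytes are the committed precursors of fat cells, and in adipose tissue they are found among stromal cells that carry PDGF receptors, CD34, SCA-1 (the product of Ly6a) and THY1 at their surface. As they differentiate, brakes such as DLK1 and the zinc finger protein ZFP521 give way to ZFP423, PPAR gamma and C/EBP alpha, and lipid genes are switched on. No marker of the list is specific to preadipocytes: vimentin persists in mature fat cells, PDGFR beta also marks mural cells of vessels, CD34 endothelium, and THY1 and SCA-1 several blood cells.

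Total counts were 26085061 to 29194179 in the DMSO libraries and 21611589 in the rotenone library, at which 3 counts equal 0.103 to 0.115 CPM and 0.139 CPM (counts scaled to library size, here before TMM). Transcripts of mature fat cells were present: all 15 mature adipocyte genes of the list were detected in every library. In DMSO, Fabp4 was at 5120 ± 401 CPM (SD, n = 3), Adipoq at 1163 ± 88 CPM and Ucp1 at 67.2 ± 10.9 CPM. The 10 proliferation genes were also detected, at a summed 1112 to 1144 CPM in DMSO. What share of the cells had differentiated was not tested. Levels below are CPM on TMM-scaled library sizes. Fold changes are log2 values of rotenone against DMSO ± SE from edgeR's quasi-likelihood test, with p-values adjusted by the Benjamini-Hochberg method over 14709 genes and a threshold of 0.05. Since the rotenone group had 1 library, these tests rest on the spread between the DMSO libraries and assume that rotenone libraries would vary no more.

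The markers split. Thy1, Dlk1, Pdgfrb, S100a4 and Vim were higher with rotenone, and Pdgfra, Zfp521 and Zfp423 were lower. Ly6a and Cd34 did not pass the threshold. That made 5 of 10 higher, where 27.6% of all genes tested were called higher, and 3 of 10 lower, where 28.5% were called lower. The share called in either direction was 8 of 10 against 56.1%, and the median log2 fold change was 0.56 against -0.04 for all genes tested. The rotenone value lay above all 3 DMSO values for 6 markers, against 41.5% of genes tested, and below all 3 for 3 markers, against 44.7%. Cd34 alone of the 10 lay inside the DMSO range; over all genes, 86.2% lay outside it. With a biological coefficient of variation of 20% assumed, against 6.9% estimated over all genes, 4 markers were called higher (against 9.57% of all genes) and 2 lower (against 14% of all genes), with the calls for Vim and Zfp423 lost. Between the DMSO libraries the 10 markers varied by 1.60% (Vim) to 29% (Cd34), and Ly6a and Cd34 by more than that 20%. In bulk RNA of this kind, more or fewer cells of a type and more or less RNA per cell cannot be told apart.

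**Figure D1:**
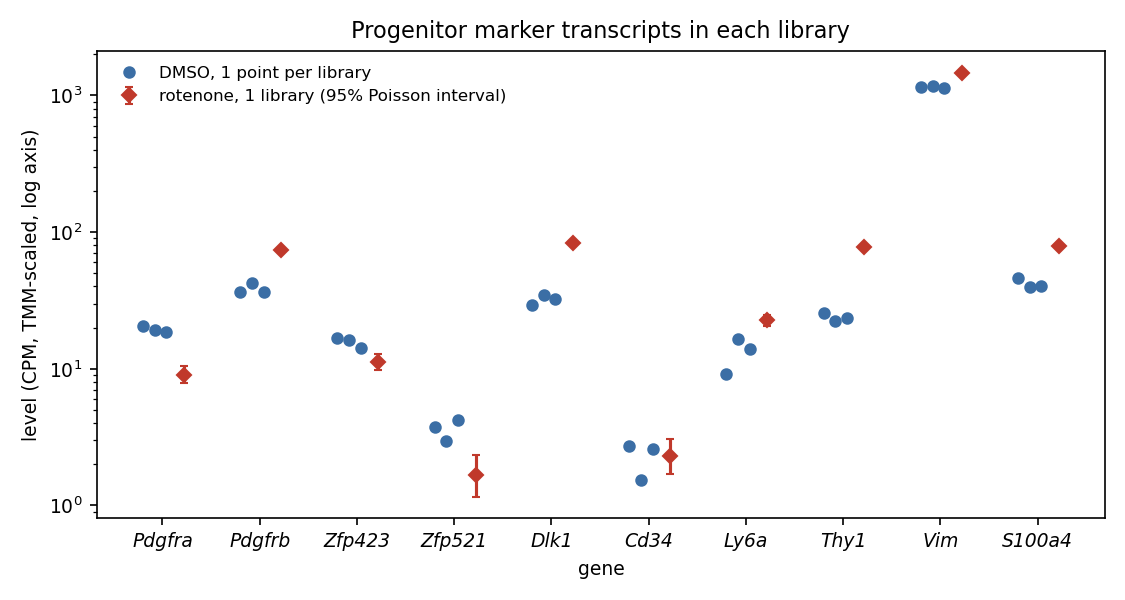
Levels of the 10 markers in CPM on a log axis, with 1 blue point for each of the 3 DMSO libraries and a red diamond for the rotenone library, whose bar is the 95% Poisson counting interval. The diamond lies above the DMSO points for Pdgfrb, Dlk1, Ly6a, Thy1, Vim and S100a4, below them for Pdgfra, Zfp423 and Zfp521, and among them for Cd34.

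**Figure D2:**
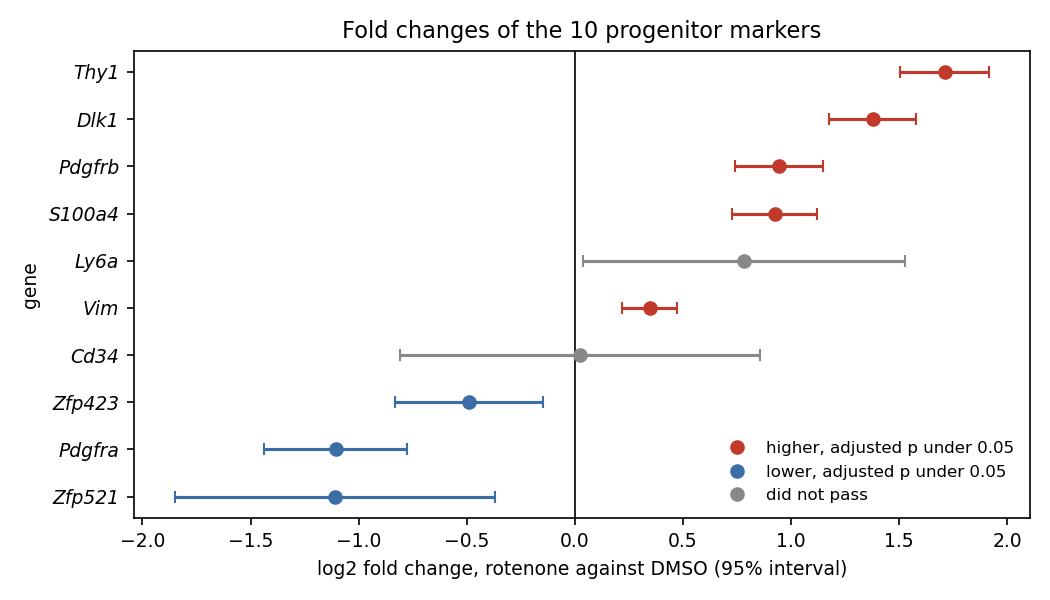
Log2 fold changes of the 10 markers with their 95% intervals, coloured by the call. Thy1 stood highest at 1.71 and Zfp521 lowest at -1.11; the interval of Ly6a excluded 0 before adjustment for multiple testing, but its adjusted p did not pass.

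The upstream sequences of 4 genes are shown because they precede genes that moved in opposite directions: Dlk1 and S100a4, which were higher, and Pdgfra and Zfp423, which were lower. Each is the 250 bases before the RefSeq start on the gene's strand in GRCm38.p6: chr12:109452573-109452822 (plus strand) for Dlk1, chr3:90603520-90603769 (plus) for S100a4, chr5:75152001-75152250 (plus) for Pdgfra and chr8:87959596-87959845 (minus; the first of its listed starts) for Zfp423. Of the 10 genes, 6 were matched in the RefSeq promoter table. Capitals mark matches on either strand to any of 5 motifs: GGGCGG (GC box), ACGTG (hypoxia response core), TGACTCA (AP-1), CCAAT (the box of that name) and TATAAA (the core promoter element); none of these matches overlap.
Dlk1: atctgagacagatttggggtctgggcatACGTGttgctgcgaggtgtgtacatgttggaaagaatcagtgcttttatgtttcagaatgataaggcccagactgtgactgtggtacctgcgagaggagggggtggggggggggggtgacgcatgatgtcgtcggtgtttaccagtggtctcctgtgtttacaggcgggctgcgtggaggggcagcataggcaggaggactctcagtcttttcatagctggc
S100a4: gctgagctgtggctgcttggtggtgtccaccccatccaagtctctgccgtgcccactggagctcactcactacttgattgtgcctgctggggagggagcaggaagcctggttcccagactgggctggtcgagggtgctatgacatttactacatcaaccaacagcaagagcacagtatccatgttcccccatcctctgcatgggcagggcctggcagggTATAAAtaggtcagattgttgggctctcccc
Pdgfra: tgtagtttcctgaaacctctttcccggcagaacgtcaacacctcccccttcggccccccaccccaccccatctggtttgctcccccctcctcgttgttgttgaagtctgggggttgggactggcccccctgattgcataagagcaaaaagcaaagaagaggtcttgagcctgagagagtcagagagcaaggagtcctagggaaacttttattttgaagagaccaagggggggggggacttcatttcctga
Zfp423: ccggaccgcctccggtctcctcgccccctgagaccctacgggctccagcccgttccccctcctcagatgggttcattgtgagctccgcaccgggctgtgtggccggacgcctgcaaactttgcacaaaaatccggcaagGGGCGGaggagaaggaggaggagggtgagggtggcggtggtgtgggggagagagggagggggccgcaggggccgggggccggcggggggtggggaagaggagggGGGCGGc
The Dlk1 window held 1 hypoxia response core, 222 bases before the start, a motif found in 16.6% of 32851 windows of this length. The S100a4 window held that core promoter element, the TATA box, 31 bases before the start, against 12.4% of all windows. In Zfp423, GC boxes lay 111 and 7 bases before the start, against 32.7% of windows with at least 1. The Pdgfra window held none of the 5. AP-1 was in 4.5% of windows and in none of these. Vim, whose sequence is not shown, had a TATA box 32 bases before its start and 2 CCAAT boxes, a motif found in 33.8% of windows.

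The PDGF receptors moved in opposite directions. Pdgfra (chromosome 5, 75152292 to 75198215, plus strand, GRCm38) encodes the receptor that marks adipose progenitors, and Pdgfrb (chromosome 18) the receptor typical of mural and stromal cells. Pdgfra stood at 20.7, 19.3 and 18.5 CPM in DMSO replicates 1, 2 and 3 and at 9.06 CPM with rotenone. The rotenone value was below every DMSO value by a margin far wider than the spread between them. Its log2 fold change was -1.11 ± 0.16 (edgeR adjusted p = 7.7e-06), a level 2.15-fold lower. Pdgfrb stood at 36.4, 42.3 and 36.4 CPM in DMSO and at 73.8 CPM with rotenone, with no overlap. It rose by 0.94 ± 0.10 on the log2 scale (edgeR adjusted p = 1.3e-07). Per kilobase of longest annotated transcript, the ratio of Pdgfrb to Pdgfra was 2.21, 2.76 and 2.48 in DMSO and 10.3 in the rotenone library.

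Of the 4 PDGF ligand genes, 3 passed the filter on low counts, and 1 of those was called, as higher. Over all genes tested 27.6% were called higher and 56.1% in either direction, so the count is no result about the ligands. Pdgfc, a ligand of PDGFR alpha, was at 12.5 ± 2.2 CPM (SD, n = 3) in DMSO and 16.9 CPM with rotenone, a log2 fold change of 0.44 ± 0.18 (edgeR adjusted p = 0.043). With a coefficient of variation of 20% assumed, none of the 3 was called. Pdgfa gave 0.24 ± 0.15 and Pdgfd -0.52 ± 0.68, neither past the threshold. Pdgfb, the main ligand of PDGFR beta, had 2, 4 and 2 counts in DMSO and 0 with rotenone and was not tested.

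Zfp423 and Zfp521 encode paralogous zinc finger proteins that bind EBF factors, the first promoting and the second opposing fat cell commitment. Both were lower with rotenone. Zfp423 (chromosome 8, 87661810 to 87959595, minus strand, GRCm38) stood at 16.9, 16.3 and 14.3 CPM in DMSO and at 11.3 CPM with rotenone. Groups did not overlap, although DMSO replicate 3 lay closer to the rotenone value than the other two. The log2 fold change was -0.49 ± 0.16 (edgeR adjusted p = 0.016). Zfp521 (chromosome 18) was among the 2 least abundant markers, at 3.75, 2.94 and 4.19 CPM in DMSO and 1.67 CPM with rotenone. That rotenone value rested on 34 counts, with a 95% Poisson interval of 1.16 to 2.34 CPM that ended below the lowest DMSO value. Its log2 fold change was -1.11 ± 0.35 (edgeR adjusted p = 0.012). Each of these 2 calls was lost in 4 of the 14 alternative settings, more than any other marker's: neither passed with DESeq2 (adjusted p = 0.051 for Zfp521 and 0.068 for Zfp423), Zfp521 missed the threshold in limma-voom (adjusted p = 0.06), and Zfp423 did so with a coefficient of variation of 20% assumed (edgeR adjusted p = 0.34).

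Genes that work with these factors, or in the BMP signalling upstream of brown fat commitment, were mostly lower. Of 19 listed genes 17 were tested, of which 11 fell (against 28.5% of all genes) and 1 rose (against 27.6% of all genes), with a median of -0.45 against -0.04 for all genes tested. Ebf2, which selects brown adipogenic targets and marks brown preadipocytes, was at 155, 147 and 160 CPM in DMSO and 50.7 CPM with rotenone, a fall of 1.61 ± 0.08 on the log2 scale. Its relative Ebf1 gave -0.08 ± 0.08 and did not pass. Prdm16, the coregulator of brown identity, fell by 2.13 ± 0.14 and Zfp467, a zinc finger factor of early adipogenesis, by 1.65 ± 0.12. Id1, a BMP target, gave the largest fall of the list, 3.29 ± 0.18 on the log2 scale, with 43.4, 40.3 and 34.7 CPM in DMSO and 4.04 CPM with rotenone, while its relative Id3 gave -0.06 ± 0.09 and did not pass. Ctbp1, a corepressor, was the 1 gene of the list that rose, by 0.32 ± 0.08. With a coefficient of variation of 20% assumed, 4 of the 17 were called lower (against 14% of all genes) and 0 higher (against 9.57% of all genes).

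Dlk1 (chromosome 12, 109452823 to 109463336, plus strand, GRCm38), also known as Pref-1, encodes a transmembrane relative of Notch ligands that is shed from preadipocytes and holds back their differentiation. Its level was 29.4, 34.7 and 32.5 CPM in DMSO and 83.6 CPM with rotenone. All 3 DMSO values lay within 1.18-fold of one another, and the rotenone value was 2.6 times their mean. The log2 fold change was 1.38 ± 0.10 (edgeR adjusted p = 6.9e-10), larger than that of 96.5% of genes tested, and it passed under all 14 alternative settings, where it ranged from 1.26 to 1.47. Among 12 tested genes of the Notch pathway and of DLK1 signalling, 3 rose and 4 fell, with a median of 0.16. These shares are close to those over all genes tested, 27.6% higher and 28.5% lower, so the counts are no result about the pathway, and the values of its genes are given as a description. Sox9, a target through which DLK1 is known to act, went from 4.93, 6.47 and 6.14 CPM to 17 CPM, a rise of 1.54 ± 0.19. Jag1 rose by 0.90 ± 0.13 and the receptor gene Notch1 by 0.49 ± 0.10. Jag2, by contrast, fell by 2.29 ± 0.52 and Notch4 by 1.78 ± 0.40, both from under 4 CPM, beside Notch3 (-0.82 ± 0.10) and Notch2 (-0.26 ± 0.09). Hes1, a direct Notch target, gave 0.15 ± 0.21 and did not pass. Adam17, the protease that sheds DLK1, gave 0.16 ± 0.08 and did not pass either.

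A list of other inhibitors of adipogenesis, which also holds modulators and targets of WNT signalling, showed no common direction. Of 13 tested, 3 rose and 4 fell, with a median of 0.01, close to the 27.6% and 28.5% of all genes. The 3 that rose were all such modulators or targets. Sfrp4 and Sfrp2, secreted modulators of WNT signalling, rose by 1.17 ± 0.31 and 1.02 ± 0.37, and the WNT target Axin2 by 1.02 ± 0.35, all 3 from mean DMSO levels of 1.64 to 2.13 CPM. Wnt5a, at 30.4, 30.3 and 33.6 CPM in DMSO and 12 CPM with rotenone, fell by 1.39 ± 0.13. Wnt5b had 127 counts over the 3 DMSO libraries and 3 counts with rotenone. Scaled to library size without TMM, its level was 11-fold lower, with an exact 95% counting interval of 3.67 to 53.8. Its log2 fold change in edgeR was -3.29 ± 0.77. Foxo1, at -0.74 ± 0.09, and Tcf7l2, at -0.39 ± 0.15, were the other 2 that fell. Gata2 and Gata3, which repress Pparg in preadipocytes, lay near 1 CPM and did not pass.

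Among the surface markers, Thy1 gave the largest difference of the 10. Thy1 (chromosome 9, 44043384 to 44048579, plus strand, GRCm38) encodes the GPI-anchored protein CD90 of stromal cells and fibroblasts. Its level was 25.6, 22.3 and 23.6 CPM in DMSO and 77.9 CPM with rotenone, 3.27 times the DMSO mean. No DMSO library came near the rotenone value. The log2 fold change of 1.71 ± 0.10 (edgeR adjusted p = 4.3e-11) exceeded that of 98% of genes tested and ranged from 1.59 to 1.77 over the 14 alternatives. The genes nearest to Thy1 in level and pattern, by Euclidean distance in log2 CPM over the 4 libraries, included Ankrd23 and Mreg, at distances of 0.29 and 0.31. For Zfp521, the marker with the lowest fold change, the 3 nearest were Erbb3, Gsdme and Sgk3, at 0.20, 0.34 and 0.36.

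Ly6a (chromosome 15, 74994877 to 74998031, minus strand, GRCm38) encodes SCA-1, a GPI-anchored protein used to sort adipose progenitors. Its level was 9.18, 16.6 and 13.8 CPM in DMSO and 22.7 CPM with rotenone. The rotenone library lay above every DMSO library, but the DMSO values themselves spanned 1.81-fold, a coefficient of variation of 28.4% where counting error alone gives 5.17%. The log2 fold change of 0.78 ± 0.30 did not pass (edgeR adjusted p = 0.072). The call turned on the settings: Ly6a passed in DESeq2 (adjusted p = 0.0087) and limma-voom (adjusted p = 0.0056), without the low-count filter (edgeR adjusted p = 2.7e-06), and without DMSO replicate 1 (edgeR adjusted p = 0.00026) or 2 (0.00061), and it did not without DMSO replicate 3 (0.33). Over all 14 alternatives its adjusted p ran from 2.7e-06 to 0.39. Of the 50-base windows of its longest transcript, 10% also occur in other genes, of which Ly6c1 and Ly6i share the most. Part of its reads could therefore have been assigned either way.

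The spread of Ly6a between DMSO libraries was also seen in interferon-stimulated genes, a list chosen after these values were seen, and Ly6a is itself known to respond to interferon. Of 20 such genes, 19 had their highest DMSO value in replicate 2, as Ly6a did, against 33% of all genes tested; 4 of the 5 other Ly6 family genes tested did so too. The 20 interferon-stimulated genes summed to 616, 964 and 692 CPM in DMSO replicates 1, 2 and 3 and 1322 CPM with rotenone. This was the order of libraries seen for Ly6a. As the list was chosen with the Ly6a values known, the match is a description and no test. Bst2 stood at 70.4, 156 and 114 CPM in DMSO and at 310 CPM with rotenone. Ifitm3 stood at 60.3, 112 and 82.3 CPM and at 210 CPM, and neither gene was called. Ifit1, Ifit2, Stat2, Irf9, Usp18 and Psmb8 lay inside the DMSO range with rotenone. Only Ddx58 (0.38 ± 0.13) and Ifi35 (0.59 ± 0.13) of the 20 were called higher, where 27.6% of all genes tested were. None was called lower, where 28.5% of all genes were. The part of this signal in the Ly6a value was not tested. Of the 5 other Ly6 family genes tested, 1 was called higher and 0 lower, beside 27.6% and 28.5% of all genes. With so few genes the counts are no result about the family. Ly6c1, at 8.14, 12.1 and 8.76 CPM in DMSO and 14.2 CPM with rotenone, rose by 0.55 ± 0.20. Ly6e, Ly6h, Lypd1 and Lypd6 gave 0.31 ± 0.24, 0.44 ± 0.32, 1.28 ± 0.60 and 1.36 ± 0.80, and none of these 4 passed.

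Cd34 (chromosome 1, 194938819 to 194961279, plus strand, GRCm38), a sialomucin of progenitors and endothelium, was low in every library. It stood at 2.73, 1.52 and 2.58 CPM in DMSO and at 2.32 CPM with rotenone, inside the DMSO range. The log2 fold change was 0.02 ± 0.40 (edgeR adjusted p = 0.97), with a 95% interval from -0.81 to 0.85, and its sign turned to -0.20 without DMSO replicate 2 and to -0.10 with library size scaling. A difference of a size within that interval could not be told from none. The rotenone library held 47 counts, and the DMSO values had a coefficient of variation of 29% where counting error alone gives 12.4%. An antisense gene, Gm16897, overlaps exons of Cd34, and the sources used here do not say whether counting used strand.

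Vim and S100a4 encode abundant cytoplasmic proteins of mesenchymal cells. Vim (chromosome 2, 13573927 to 13582826, plus strand, GRCm38) encodes the intermediate filament vimentin, and was the most abundant of the 10 by far, with 1149, 1175 and 1140 CPM in DMSO and 1469 CPM with rotenone. The DMSO libraries differed by at most 1.03-fold, so a rise of 0.35 ± 0.06 on the log2 scale, or 1.27-fold, passed the test (edgeR adjusted p = 7.2e-05). It did not pass with a coefficient of variation of 20% assumed (edgeR adjusted p = 0.48). Vim supplied 85.7% to 86.0% of the summed level of the 10 markers in DMSO and 80.2% with rotenone. Without it, the other 9 summed to 186 to 196 CPM in DMSO and 362 CPM with rotenone.

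S100a4 (chromosome 3, 90603771 to 90606045, plus strand, GRCm38), or FSP1, encodes a small calcium-binding protein of fibroblasts. It stood at 45.9, 39.8 and 40.3 CPM in DMSO and at 79.7 CPM with rotenone. Values did not overlap, and the rise was 0.92 ± 0.09 on the log2 scale (edgeR adjusted p = 9.7e-08). Of the 50-base windows of its longest transcript, 56.3% also lie in the overlapping gene model Gm42674, not analysed here, so its reads may include some from there. Of the other S100 genes 9 were tested, with a median of 0.09. Of these, 1 rose (against 27.6% of all genes) and 1 fell (against 28.5% of all genes). S100a6, a relative in the same gene cluster, rose by 0.89 ± 0.08 to 461 CPM, above DMSO values of 257, 267 and 223 CPM. S100a16 fell by 0.32 ± 0.11. The abundant S100a10, S100a11 and S100a1 gave -0.06 ± 0.07, 0.09 ± 0.07 and 0.14 ± 0.07, and none of these 3 passed.

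Filament and mesenchymal transcription factor genes, set beside Vim, went both ways. Of 15 tested, 5 rose and 6 fell, with a median of -0.28, beside 27.6% and 28.5% of all genes. With a coefficient of variation of 20% assumed, 1 was called higher and 3 lower, beside 9.57% and 14% of all genes. Plec, the linker of vimentin filaments, fell by 1.05 ± 0.08 to 92.5 CPM, below DMSO values of 188, 200 and 185 CPM. Snai1 fell by 1.03 ± 0.27 and Zeb2 by 1.00 ± 0.08, while Twist1 rose by 0.83 ± 0.12. These 3 encode transcription factors of mesenchymal identity.

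Levels per kilobase of longest annotated transcript put Vim first in DMSO, at 395 CPM per kilobase, and S100a4 next, at 84.3. Ly6a and Thy1 followed at 13.8 and 13.7, then Pdgfrb at 7.07, Dlk1 at 6.92, Zfp423 at 3.23, Pdgfra at 2.85, Cd34 at 0.744 and Zfp521 at 0.584. Ly6a and Thy1 changed places between DMSO libraries, as did Pdgfrb and Dlk1, so neither pair was ordered beyond its spread. The other ranks were the same in all 4 libraries. In the rotenone library Thy1 was at 44.9 and Ly6a at 23.8 CPM per kilobase, and Dlk1 was at 18 and Pdgfrb at 13.6.

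Further stromal genes were given as a pair of lists, and 27.6% of all genes tested were called higher and 28.5% lower. Of 11 mesenchymal stromal surface genes 9 were tested, of which 7 rose and 2 fell, with a median of 0.66. Vcam1, at 6.58, 7.51 and 6.74 CPM in DMSO and 18.5 CPM with rotenone, rose by 1.41 ± 0.17, the fibronectin receptor gene Itga5 by 1.35 ± 0.12 and Eng (CD105) by 1.25 ± 0.33. Mcam fell by 0.99 ± 0.12 and Nt5e (CD73) by 0.93 ± 0.27, so Eng and Nt5e, whose products are commonly used together to define stromal cells, moved in opposite directions. Of 17 markers of adipose progenitor subsets 12 were tested, of which 6 rose, 0 fell and 6 did not pass, with a median of 0.74. The 6 included the matrix genes Fbn1 (1.00 ± 0.07), Col15a1 (0.99 ± 0.07) and Loxl1 (0.84 ± 0.08), and F3 (0.83 ± 0.07), the CD142 marker. Defining genes of the earliest adipose progenitors were near 0: Dpp4 had 2 counts in 1 DMSO library and 0 in the others, and Pi16 had at most 19 counts in any library. With a coefficient of variation of 20% assumed, 3 of the 9 surface genes and 5 of the 12 subset markers were called higher (against 9.57% of all genes), and 1 and 0 lower (against 14% of all genes).

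**Figure D3:**
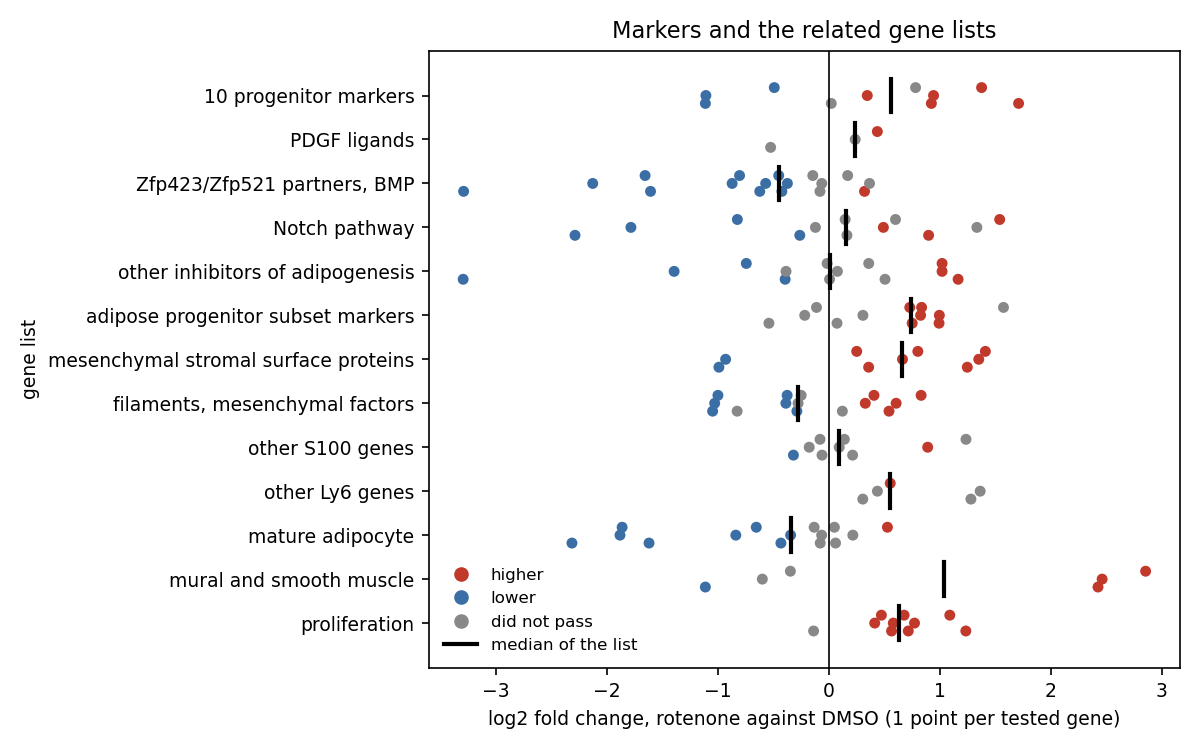
Log2 fold changes of the tested genes in the 10 markers and 12 related lists, 1 point per gene, coloured by the call, with a black bar at each list's median. Partners of Zfp423 and Zfp521 lie mostly to the left (median -0.45), and stromal surface genes (0.66), progenitor subset markers (0.74) and proliferation genes (0.63) mostly to the right.

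Markers of other cells and states moved beside these genes. Of the 15 mature adipocyte genes, 8 fell (against 28.5% of all genes) and 1 rose (against 27.6% of all genes; median -0.34); with a coefficient of variation of 20% assumed 4 were called lower (against 14% of all genes) and 0 higher. Cebpa stood at -2.31 ± 0.08, Lipe at -1.88 ± 0.07, Ucp1 at -1.86 ± 0.21, Adrb3 at -1.62 ± 0.09, and Lpl, the 1 that rose, at 0.53 ± 0.07. The summed level of the 15 was 14215 to 15492 CPM in DMSO and 13560.4 CPM with rotenone. Of 10 mural and smooth muscle genes 6 were tested. Of these, 3 rose (against 27.6% of all genes) and 1 fell (against 28.5% of all genes). Acta2 (2.46 ± 0.06), Tagln (2.43 ± 0.08) and Cnn1 (2.85 ± 0.23) rose and Cspg4 fell by 1.11 ± 0.08. Myh11 (-0.60 ± 0.36) and Lmod1 (-0.35 ± 0.22) did not pass, and both lay below all 3 DMSO values. The sum was 373 to 413 CPM in DMSO and 1583 CPM with rotenone, of which Acta2 gave 852 CPM and Tagln 654 CPM. The pericyte genes Kcnj8 and Abcc9 were at 0 in every library and Rgs5 had at most 4 counts. Of 10 proliferation genes 9 rose (against 27.6% of all genes), with a median of 0.63. With a coefficient of variation of 20% assumed 2 were called higher (against 9.57% of all genes). Among the 9, Mcm2 rose by 1.24 ± 0.07, Plk1 by 1.09 ± 0.11, Ccna2 by 0.77 ± 0.07 and Cdk1 by 0.72 ± 0.07. The other gene, Mki67, gave -0.14 ± 0.08 and did not pass, its rotenone value lying just below the lowest DMSO value. The sum was 1112 to 1144 CPM in DMSO and 1783 CPM with rotenone. Endothelial genes summed to 5.13 to 5.54 CPM in DMSO and 8.42 CPM with rotenone, mostly from Egfl7 (0.62 ± 0.23, called higher); Pecam1 gave 0.37 ± 1.00 and did not pass, and Tie1, Emcn and Cldn5 were at 0 in every library. Leukocyte genes summed to 4.05 to 4.45 CPM and 16.7 CPM, of which Cd68 (2.38 ± 0.23) rose and Cd14 (-0.06 ± 0.60) did not pass, while Ptprc, Adgre1, Cd3e and Cd4 were at 0 in every library. Skeletal muscle genes summed to 2.03 to 2.99 CPM and 7.49 CPM, with Acta1 higher (4.87 ± 0.45), Tnnc1 lower (-1.38 ± 0.49), and Myod1, Myf5, Myf6 and Pax7 at 0 in every library. The part of any of these lists in the marker values was not tested.

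Transcript length also moved with the fold changes. The median log2 fold change of all tested genes ran from 0.24 in the shortest decile of transcripts to -0.27 in the longest. S100a4 and Ly6a, with longest transcripts of 498 and 955 bases, lie in the shortest decile, and Pdgfra, with 6834 bases, in the longest. Pdgfrb and Zfp521 lie in the decile with a median of -0.22, and Dlk1 and Zfp423 in one with a median of -0.10. With library offsets that remove the trend, the same 5 markers were called higher (against 28.6% of all genes) and the same 3 lower (against 26.6% of all genes). Pdgfra became -0.85 ± 0.16, Zfp521 -0.90 ± 0.35, S100a4 0.67 ± 0.09, Pdgfrb 1.16 ± 0.10 and Ly6a 0.53 ± 0.28, the last not past the threshold. In the list of Zfp423 and Zfp521 partners and BMP genes, 9 of 17 were called lower and 2 higher with these offsets. Their median was -0.35, against -0.01 for all genes tested. Of the 9 other S100 genes tested, 3 were called lower and 1 higher, with a median of -0.16. Over all genes the shares were 26.6% lower and 28.6% higher.

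**Figure D4:**
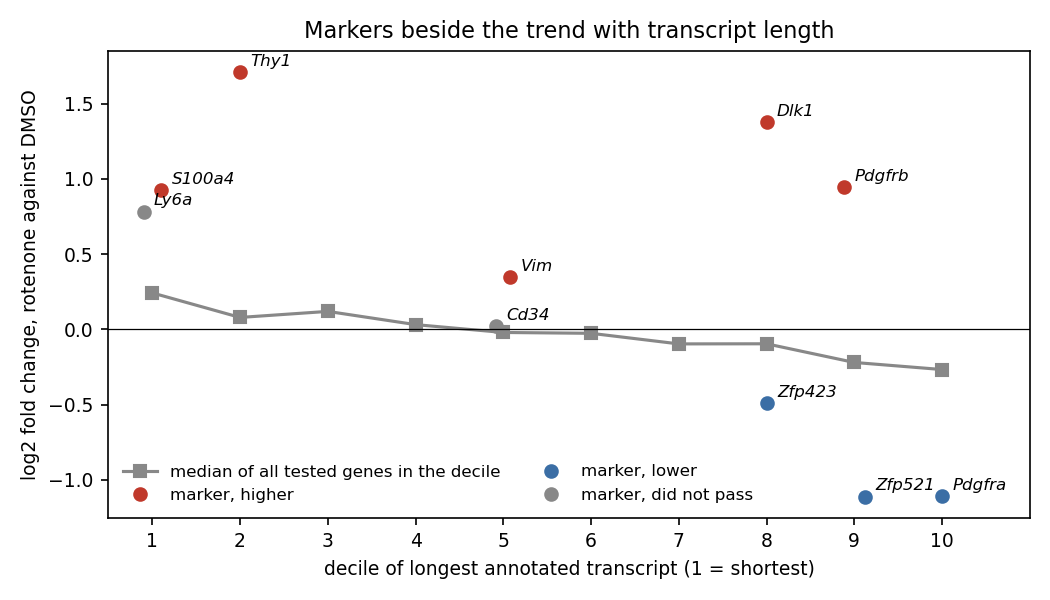
Log2 fold change against the decile of longest annotated transcript, for each marker (coloured points) and for the median of all tested genes (grey squares, from 0.24 in the shortest decile to -0.27 in the longest). The 8 called markers lie further from 0 than the grey line on the side of their call.

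Under the 14 alternatives, which changed the scaling, filter, test, threshold, libraries or assumed spread, Thy1, Dlk1, Pdgfrb, S100a4 and Pdgfra passed the threshold every time. Vim missed it in 2 settings and Zfp423 and Zfp521 in 4 each, with no change of direction.

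**Figure D5:**
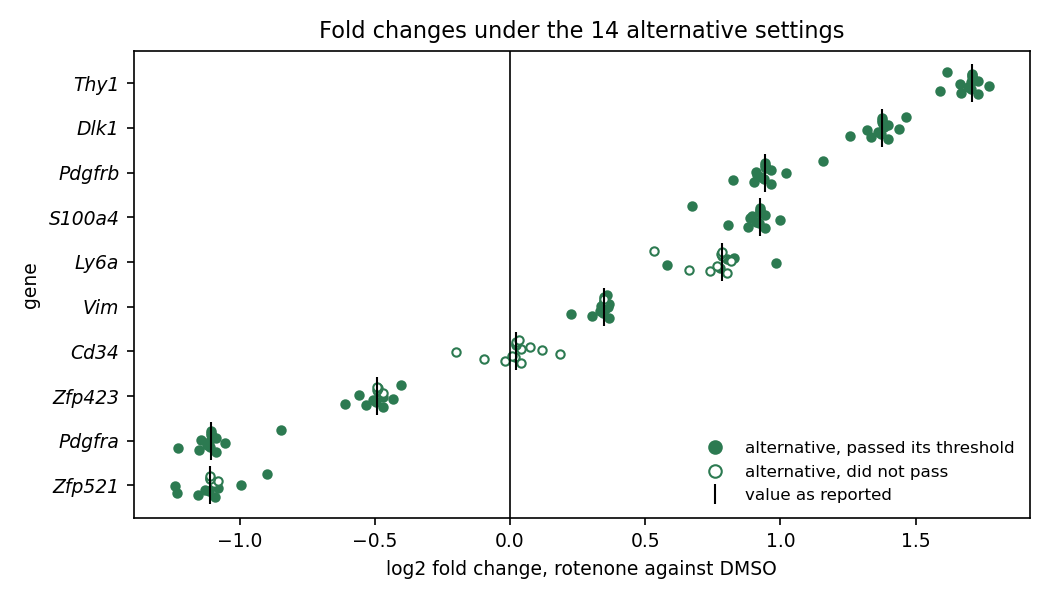
Log2 fold changes of the 10 markers under 14 alternative settings (green points, filled where the setting's threshold was passed) beside the value as reported (black tick). Points for Thy1, Dlk1, Pdgfrb, S100a4 and Pdgfra are all filled, those of Ly6a, Vim, Zfp423 and Zfp521 are mixed, and those of Cd34 are all open and on both sides of 0.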

How the data were processed

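The authors deposited raw counts by gene symbol, 1 file per sample. Their processing notes name TopHat2 and the build mm10 (GRCm38), with no version. The counting program, annotation, strand setting and handling of multi-mapped reads are not stated. The 3 rotenone files were identical in all genes and entered as 1 library. The labels call the replicates independent but name no separate cultures, so p-values reflect a spread that may be technical. In R 4.3.3, edgeR 4.0.16 scaled counts by TMM, filtered them with filterByExpr defaults and ran the robust quasi-likelihood F test over 14709 genes (2 residual degrees of freedom; biological coefficient of variation 6.9%). The SE was the log2 fold change divided by the square root of F. Alternatives used DESeq2 1.42.0, limma 3.58.1 and other settings. Simulated 2-fold changes were recovered in 83.3% of genes, with 5.88% of calls false, over 14371 genes. The simulation changed 200 genes and gave every gene and library, rotenone included, the same spread beyond counting error. It therefore does not give the share of false calls in these data. Transcript lengths came from GENCODE M21 for 96.7% of tested genes. Intervals on single libraries cover counting error only. Named genes were all markers, up to 4 called genes with the largest change per list, every tested gene of lists with at most 5, and the 3 nearest neighbours of the most raised and most lowered marker (1 of them is not reported here); further genes were chosen after their values were seen. The markers and lists were chosen with earlier results of these data known.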

Additional observations from a re-analysis of the deposited data

How the results depend on the processing

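All directions held for the 8 called markers and Ly6a under the 14 alternatives; of 140 marker values, 122 kept their direction and side of the threshold, 10 no longer passed, 5 (all Ly6a) now passed and 3 (all Cd34, never past the threshold) turned sign. Cd34 was -0.0199 with upper quartile scaling, -0.0964 with library size scaling, and from -0.199 to 0.185 when single DMSO libraries were left out. Of the 3 markers called lower, 1 remained with DESeq2, 1 in the test against a 1.5-fold change and 1 at an adjusted p of 0.01, Pdgfra in each. The count called over all genes went from 8251 (4054 higher, 4197 lower) to 2934 in the test against a 1.5-fold change and to 3471 with a coefficient of variation of 20% assumed; with that assumption 4 markers were higher (against 9.57% of all genes) and 2 lower (14%). Library size scaling gave 3245 higher and 5150 lower genes and moved the median of all genes from -0.04 to -0.16. No paired analysis was possible because the rotenone group held 1 distinct library. Low counts limit Cd34 and Zfp521, with 47 and 34 counts in the rotenone library.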
